A study of Mus musculus with 90 samples.

Results

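Txnip and the related arrestin-domain genes Arrdc2, Arrdc3 and Arrdc4 were followed across 5 tissues of mice given astatine-211. They were taken as every probe annotated to the 4 gene symbols. The array held 25697 probes for 16593 annotated genes, of which 1 belonged to Txnip, 1 to Arrdc2 and 1 to Arrdc4. Arrdc3 had 0 annotated probes and was not analysed here, so 3 of the 4 genes are described. The genes were chosen by their log2 differences between 1.8, 14 or 42 kBq and 0 kBq on these same arrays. Those differences, and that of 0.64 kBq from 0.064 kBq, are therefore given as a description. Counts of combinations past a threshold in these contrasts describe the choice and support nothing. All 3 probes passed the filter on low values in all 5 tissues. Each was detected on all 18 arrays of a tissue, except that of Arrdc2 in kidney cortex, which was detected on 17 of 18.

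The study injected Balb/c mice with astatine-211, a radionuclide that emits alpha particles, into the blood and took kidney cortex, kidney medulla, liver, spleen and lung after 24 h. The groups used here are the injected activities of 0, 1.8, 14 and 42 kBq and, apart from these, 0.064 and 0.64 kBq, each with 3 arrays per tissue. This gave 90 single-colour Illumina bead arrays of total RNA from fresh-frozen tissue. The labels name the strain, the tissue, the nuclide, the activity and the time, and give neither age, sex nor whether the 3 arrays of a group came from separate animals. The p-values therefore measure only the spread between these arrays, which may be technical.

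Txnip encodes thioredoxin-interacting protein, which binds thioredoxin, blocks its reducing activity and draws glucose transporters off the cell surface. It is an alpha-arrestin, a family of adaptor proteins that bring Nedd4-type ubiquitin ligases to membrane proteins so that these are taken up and degraded. Its transcription is among the most glucose-sensitive known: the factors MondoA (gene Mlxip) and ChREBP (gene Mlxipl), paired with Mlx, bind a carbohydrate response element in its promoter. Glucocorticoids and the forkhead factors of the fasting state also act on the gene. Arrdc4 is a close relative that is driven by the same glucose-sensing factors and, like Txnip, restrains glucose uptake. Arrdc2 and Arrdc3 are further alpha-arrestins that tie receptors to ubiquitin ligases.

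The promoters of the 3 measured genes are shown because Txnip and Arrdc4 share these regulators in the literature. Each is the 250 bases before the start of the gene, 5′ to 3′ on the strand of the gene, from RefSeq (GRCm38.p6). Capitals mark CACGAG and CACGTG on either strand, the sequences known from the Txnip carbohydrate response element and its relatives.
Txnip, chr3:96557707-96557956, plus strand: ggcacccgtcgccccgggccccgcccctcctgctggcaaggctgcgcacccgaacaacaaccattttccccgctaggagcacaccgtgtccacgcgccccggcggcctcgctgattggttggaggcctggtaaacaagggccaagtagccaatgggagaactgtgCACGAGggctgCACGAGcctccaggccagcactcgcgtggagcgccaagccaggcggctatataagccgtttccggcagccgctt
Arrdc4, chr7:68749239-68749488, minus strand: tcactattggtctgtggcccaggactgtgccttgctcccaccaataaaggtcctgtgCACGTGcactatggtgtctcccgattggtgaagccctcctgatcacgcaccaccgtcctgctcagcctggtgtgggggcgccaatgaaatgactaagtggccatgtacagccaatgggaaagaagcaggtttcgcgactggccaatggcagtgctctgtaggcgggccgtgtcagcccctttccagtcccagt
Arrdc2, chr8:70839721-70839970, minus strand: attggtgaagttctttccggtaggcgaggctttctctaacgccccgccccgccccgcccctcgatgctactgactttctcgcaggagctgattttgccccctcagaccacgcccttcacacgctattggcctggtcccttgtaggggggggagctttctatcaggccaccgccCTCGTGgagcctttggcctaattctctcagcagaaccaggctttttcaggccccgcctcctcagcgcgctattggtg

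In the Txnip promoter, CACGAG lies at -85 to -80 and again at -74 to -69, counted in bases from the start. The pair of CACGAG with 5 bases between them was found in 1 of 32851 promoters of the same length, that of Txnip, or 0.00304%, although this motif was searched because it is known from that promoter. CACGAG alone was found in 5.37% of the promoters and CACGTG in 6.02%, both strands searched. Arrdc4 has 1 CACGTG, at -193 to -188, and Arrdc2 has 1 CACGAG on the opposite strand, at -77 to -72. CCAAT, which 33.8% of promoters hold, was found 2 times before Txnip, 6 times before Arrdc4 and 3 times before Arrdc2. Txnip also has TATATAA at -27 to -21, a match found in 3.04% of promoters. Such matches describe the letters of these windows only. The Txnip gene itself lies at 96557957 to 96561857 on chromosome 3, Arrdc4 at 68736994 to 68749238 on chromosome 7 and Arrdc2 at 70835129 to 70839720 on chromosome 8.

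Between 11229 and 14456 probes were detected on each array of 0, 1.8, 14 and 42 kBq. The 30 arrays of 0.064 and 0.64 kBq, with 11376 to 13956 probes detected, carry deposited values on another numerical grid and are taken as a second array set, so that the effect of activity cannot be told apart from that of the set, and no value of theirs is set against 0 kBq. Markers of each labelled tissue were present: all 8 lung epithelium genes were detected on all lung arrays, and 5 to 7 of 8 hepatocyte genes on all 3 arrays of each liver group, with Fgb undetected. In spleen 6 of 7 B cell genes were detected, Pax5 not. The loop and collecting duct genes averaged between 10.1 and 10.6 in medulla and between 8.75 and 9.45 in cortex, whereas the proximal tubule genes overlapped between the zones. Genes of other cell types differed between activity groups in all 5 tissues, not always in the order of the activity, and their part in the results below was not tested. In spleen the 11 measured exocrine pancreas genes averaged 5.02 to 5.07 at 0 kBq, with 9 of them undetected on every array, 14.06 to 14.08 at 1.8 kBq, 9.80 to 9.88 at 14 kBq and 12.83 to 12.93 at 42 kBq, with 11 of 11 detected at each of the last 3 activities. In kidney medulla the 7 fat cell genes averaged 5.58 to 5.67 at 1.8 kBq, with Plin1, Retn and Fabp4 undetected, against 4.76 to 4.92 at 0 kBq, with those and Lipe undetected. In kidney cortex the 8 hepatocyte genes averaged 6.68 to 6.87 at 1.8 kBq, where 3 of them (Alb, Fgb and Tat) were undetected, against 6.18 to 6.26 at 0 kBq. There the proximal tubule genes averaged 10.01 to 10.20 at 1.8 kBq, against 10.47 to 10.66 at 0 kBq. The fat cell genes there averaged 4.63 to 4.74 at 1.8 kBq, against 5.17 to 5.37 at 0 kBq. In lung the 7 cardiac muscle genes averaged 10.32 to 10.34 at 42 kBq, against 7.73 to 7.80 at 0 kBq. The 4 airway secretory genes of lung averaged 5.13 to 5.24 at 0 kBq, with Bpifa1 and Reg3g undetected, 8.68 to 8.78 at 14 kBq and 10.10 to 10.22 at 42 kBq, with 4 of 4 detected at the last 2 activities. In liver the 8 neutrophil genes averaged 7.91 to 8.14 at 0 kBq, 8.39 to 8.44 at 1.8 kBq, 6.95 to 7.04 at 14 kBq and 9.20 to 9.23 at 42 kBq.

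Txnip in liver was about 2-fold higher at 14 and 42 kBq and less so at 1.8 kBq. Its log2 level was 9.0, 9.03 and 9.06 at 0 kBq, 9.68, 9.93 and 9.86 at 1.8 kBq, 10.09, 10.09 and 10.21 at 14 kBq, and 10.20, 9.91 and 10.09 after 42 kBq. All 9 injected arrays lay above all 3 controls. The log2 difference from 0 kBq was 0.79 ± 0.21 (SE, n = 3 per group) at 1.8 kBq, 1.10 ± 0.21 at 14 kBq and 1.03 ± 0.21 at 42 kBq, or 1.73-, 2.15- and 2.05-fold. The unnormalised intensity stood between 470.1 and 618 at 0 kBq, 569.7 and 769 at 1.8 kBq, 972 and 1461 at 14 kBq, and 752 and 1272 after 42 kBq, while the median intensity of the arrays was 86.1 to 115 at 1.8 kBq and 104 to 117 at 0 kBq. The raw values of 1.8 and 0 kBq thus overlapped, and the normalised ones did not. With median scaling in place of quantile normalisation the difference at 1.8 kBq was 0.48, while the median of all tested probes moved to -0.22 in that comparison. In tissue RNA, a change in the number of cells of a type and a change in RNA per cell cannot be told apart. The neutrophil genes of liver were above the controls at 1.8 and 42 kBq and below them at 14 kBq, and their part in the Txnip difference was not tested.

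Txnip in kidney cortex was higher at all 3 activities by nearly the same amount. Its log2 level was 10.62, 10.80 and 10.38 at 0 kBq, 11.55, 11.45 and 11.42 at 1.8 kBq, 11.50, 11.69 and 11.61 at 14 kBq, and 11.68, 11.59 and 11.53 after 42 kBq. The lowest injected array lay above the highest control. The log2 differences from 0 kBq were 0.87, 1.00 and 1.00 (SE 0.13 each, n = 3 per group), or 1.83-, 2.00- and 2.00-fold. In unnormalised intensity the 9 injected arrays stood at 2382 to 3370 and the 3 controls at 1312 to 1649. The hepatocyte, fat cell and proximal tubule genes of cortex moved at 1.8 kBq, as given above, and their part in the Txnip difference was not tested.

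In kidney medulla the difference was largest at 1.8 kBq. The log2 level of Txnip was 10.67, 10.56 and 10.56 at 0 kBq, 11.76, 11.86 and 11.79 at 1.8 kBq, 11.60, 11.39 and 11.63 at 14 kBq, and 11.48, 11.57 and 11.85 after 42 kBq. Again no injected array reached down to a control. The log2 differences from 0 kBq were 1.21, 0.94 and 1.04 (SE 0.10 each), or 2.31-, 1.92- and 2.05-fold. Fat cell genes were higher on the arrays of 1.8 kBq than in the controls and averaged 4.78 to 4.87 at 14 kBq and 4.73 to 4.88 at 42 kBq. Their part in the Txnip difference was not tested.

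**Figure D1:**
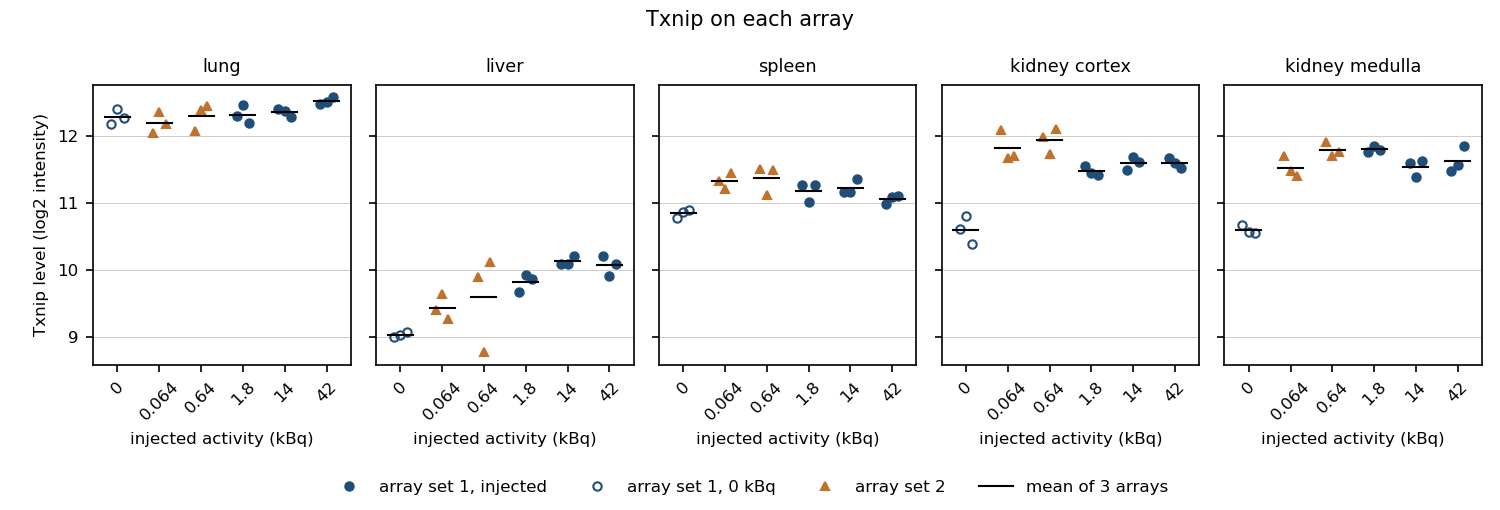
Txnip level (log2 intensity, normalised within each tissue) on each of the 18 arrays of 5 tissues, by injected activity in kBq. Points are arrays, lines the mean of 3 arrays, and triangles the second array set, which is not compared with 0 kBq. In liver, spleen, kidney cortex and kidney medulla the filled circles of 1.8, 14 and 42 kBq all lie above the open circles of 0 kBq. In lung those of 1.8 and 14 kBq overlap them.

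Spleen had a smaller difference of the same sign. Txnip stood at 10.77, 10.86 and 10.90 at 0 kBq, 11.26, 11.01 and 11.27 at 1.8 kBq, 11.17, 11.16 and 11.36 at 14 kBq, and 10.98, 11.08 and 11.10 after 42 kBq. No injected array overlapped the controls. The log2 differences were 0.34, 0.38 and 0.21 (SE 0.11 each). The exocrine pancreas genes were high on all 9 injected spleen arrays, as given above, and their part in these differences was not tested.

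In lung Txnip hardly differed. Its log2 level was 12.18, 12.41 and 12.27 at 0 kBq, 12.30, 12.46 and 12.20 at 1.8 kBq, 12.41, 12.38 and 12.29 at 14 kBq, and 12.48, 12.50 and 12.58 after 42 kBq. Only the arrays of 42 kBq lay clear of the controls. The log2 differences were 0.04, 0.07 and 0.24 (SE 0.11 each). The 95% interval ran from -0.15 to 0.30 at 14 kBq and from 0.01 to 0.46 at 42 kBq (adjusted p = 0.771, unadjusted p = 0.0415, limma). The airway secretory genes were higher at 14 and 42 kBq and the cardiac muscle genes at 42 kBq, and their part in the lung values was not tested.

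Counted over the 15 combinations of tissue and activity, which share the 3 control arrays of a tissue, Txnip was higher with an adjusted p under 0.05 (limma, Benjamini-Hochberg over all probes) in 9, and higher with no overlap of values in 13. At an unadjusted p under 0.05 (limma) the count was 12. The 9 with an adjusted p under 0.05 were all 3 activities in liver, kidney cortex and kidney medulla. Among all tested probes the share that was higher by the same rule was 1.97%, 0.709% and 1.76% in liver at 1.8, 14 and 42 kBq, 1.5%, 0.0929% and 1.36% in kidney cortex, 13.4%, 0.216% and 2.06% in kidney medulla, 1.44%, 1.89% and 0.451% in spleen, and 0.193%, 0.249% and 0.611% in lung. The share that was higher with no overlap was 13.4%, 12.9% and 13.7% in liver, 13.2%, 11.6% and 11.2% in cortex, 20.7%, 10.8% and 13.7% in medulla, 10.3%, 14% and 7.87% in spleen, and 9.15%, 10.3% and 7.43% in lung. These comparisons chose the gene, so its counts are a description. When 1 of the 6 arrays of a comparison was left out, the 6 kidney combinations passed each time. In liver, 1.8 kBq passed in 0 of 6, 14 kBq in 5 of 6 and 42 kBq in 6 of 6, and with median scaling none of the 3 liver combinations passed. The residual SD of Txnip in liver was 0.26 with all 18 arrays and 0.11 without the arrays of 0.064 and 0.64 kBq, and 11 of 15 combinations passed without those arrays, the added ones being spleen at 1.8 and 14 kBq.

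Txnip was also compared between 0.64 and 0.064 kBq, the 2 activities of the other array set. In liver it stood at 9.89, 8.77 and 10.11 at 0.64 kBq and 9.40, 9.64 and 9.26 at 0.064 kBq, so the second array of 0.64 kBq lay below all others. In kidney cortex the levels were 11.98, 11.73 and 12.10 at 0.64 kBq and 12.10, 11.68 and 11.70 at 0.064 kBq. In kidney medulla they were 11.91, 11.71 and 11.77 at 0.64 kBq and 11.71, 11.48 and 11.40 at 0.064 kBq, so the groups met at 11.71 and overlapped. Spleen stood at 11.51, 11.12 and 11.49 at 0.64 kBq and 11.32, 11.21 and 11.44 at 0.064 kBq. In lung the levels were 12.07, 12.39 and 12.45 at 0.64 kBq and 12.04, 12.36 and 12.19 at 0.064 kBq. The groups overlapped in all 5 tissues. The log2 differences ran from 0.05 in spleen to 0.27 ± 0.10 (SE, n = 3 per group) in kidney medulla, and 0 of 5 passed at an adjusted p under 0.05 (limma), against 1 at an unadjusted p under 0.05. By the same rule 0.0531% of all probes were higher in kidney cortex, 0.314% in kidney medulla, 2.06% in liver, 0.418% in spleen and 0.0312% in lung. Without the second liver array of 0.64 kBq the liver difference was 0.57 and passed. With median scaling the medulla difference was 0.46 and passed, and the median of all probes moved to 0.16.

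**Figure D2:**
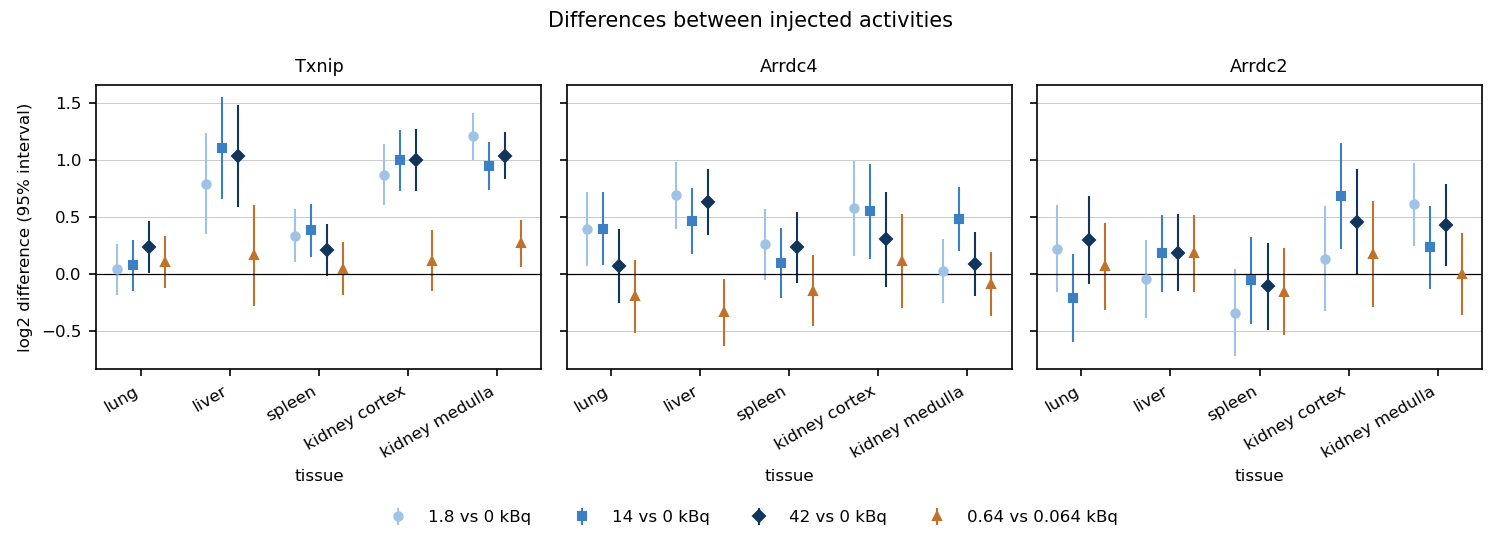
Log2 difference of Txnip, Arrdc4 and Arrdc2 between injected activities in each tissue, with 95% intervals from the fit of 18 arrays per tissue. Circles, squares and diamonds are 1.8, 14 and 42 kBq against 0 kBq, which share their controls, and triangles are 0.64 against 0.064 kBq. The Txnip intervals of 1.8, 14 and 42 kBq lie above 0 in liver and both kidney zones, with differences of 0.79 to 1.21. Smaller differences whose intervals also lie above 0 are 0.34 and 0.38 in spleen at 1.8 and 14 kBq and 0.24 in lung at 42 kBq. The intervals of spleen at 42 kBq and of lung at 1.8 and 14 kBq include 0.

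Whether Txnip went on changing beyond 1.8 kBq was tested between the injected groups. These contrasts did not choose the gene, although the same arrays did. Of 15 comparisons (14 against 1.8, 42 against 1.8 and 42 against 14 kBq in 5 tissues), 0 passed in limma after adjustment and 1 had an unadjusted p under 0.05. Of all probes, 22.5%, 8.62% and 2.51% passed in either direction in kidney medulla for 14 against 1.8, 42 against 1.8 and 42 against 14 kBq, 3.38%, 4.23% and 0.451% in kidney cortex, 5.9%, 4.46% and 0.453% in liver, 2.25%, 0.712% and 0.712% in spleen, and 1.41%, 1.36% and 0.623% in lung. The one Txnip comparison with a p under that limit was kidney medulla, with 11.60, 11.39 and 11.63 at 14 kBq against 11.76, 11.86 and 11.79 at 1.8 kBq, a log2 difference of -0.26 ± 0.10 (adjusted p = 0.0645, limma), lower on 3 of 3 arrays. In liver the difference of 14 from 1.8 kBq was 0.31 ± 0.21 (adjusted p = 0.452, limma), with a 95% interval from -0.13 to 0.76. In kidney cortex 42 kBq differed from 14 kBq by 0.00, with an interval from -0.27 to 0.27. Without the arrays of 0.064 and 0.64 kBq the 2 differences of 14 from 1.8 kBq passed, liver at 0.32 (adjusted p = 0.0161, limma) and medulla at -0.26 (adjusted p = 0.0312, limma).

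The response was also compared between tissues in 1 fit of all 90 arrays. That fit treats arrays of different tissues as independent, although the labels do not say whether they came from the same animals. This test is built from the contrasts that chose the gene and is no independent support. The Txnip response differed among the 5 tissues at 1.8 kBq (adjusted p = 5.65e-05, limma F test), at 14 kBq (adjusted p = 0.0021) and at 42 kBq (adjusted p = 0.00133). Of all 19538 probes in that fit, 16.2%, 3.36% and 4.4% did so. In the test of liver and the 2 kidney zones alone the adjusted p was 0.105, 1.00 and 0.884, so a difference among these 3 tissues was not detected. Without spleen, whose arrays carried the pancreas genes, the adjusted p was 8.07e-05, 0.0045 and 0.0219. Kidney cortex less kidney medulla gave a difference in response of -0.38 ± 0.20 at 1.8 kBq (adjusted p = 0.276, limma), 0.01 ± 0.20 at 14 kBq and -0.08 ± 0.20 at 42 kBq, where 7.33%, 0.22% and 1.07% of all probes passed. Without the arrays of 0.064 and 0.64 kBq the first of these was -0.39 and passed (adjusted p = 0.0341, limma).

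Arrdc4, the relative under the same glucose-sensing factors, was clear of the controls at all 3 activities in liver and kidney cortex, and at some in the other tissues. In liver its log2 level was 8.01, 8.10 and 8.28 at 0 kBq, 8.77, 8.77 and 8.90 at 1.8 kBq, 8.65, 8.54 and 8.58 at 14 kBq, and 8.73, 8.70 and 8.84 after 42 kBq. All 9 injected arrays lay above the controls. The log2 differences from 0 kBq were 0.69, 0.47 and 0.63 (SE 0.14 each, n = 3 per group), or 1.61-, 1.38- and 1.55-fold. With median scaling the difference at 1.8 kBq was 0.35.

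In kidney cortex Arrdc4 stood at 7.48, 7.54 and 7.72 at 0 kBq, 8.05, 8.39 and 8.02 at 1.8 kBq, 8.11, 8.26 and 8.01 at 14 kBq, and 7.80, 7.90 and 7.95 after 42 kBq. The injected arrays again lay above the controls, with log2 differences of 0.57, 0.55 and 0.30 (SE 0.20 each). In kidney medulla it stood at 7.78, 7.81 and 7.71 at 0 kBq, 7.73, 7.96 and 7.69 at 1.8 kBq, 8.30, 8.31 and 8.15 at 14 kBq, and 7.91, 7.92 and 7.73 after 42 kBq. Here only 14 kBq lay clear of the controls, with a log2 difference of 0.48 ± 0.13, against 0.03 at 1.8 kBq, where the Txnip difference was 1.21.

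In lung Arrdc4 was 8.34, 8.53 and 8.59 at 0 kBq, 8.92, 8.87 and 8.85 at 1.8 kBq, 8.87, 8.96 and 8.83 at 14 kBq, and 8.63, 8.48 and 8.56 after 42 kBq. It thus lay above the controls at 1.8 and 14 kBq, by 0.39 and 0.40 (SE 0.16 each), and among them at 42 kBq. In spleen it was 7.09, 7.51 and 7.37 at 0 kBq, 7.58, 7.60 and 7.57 at 1.8 kBq, 7.38, 7.51 and 7.36 at 14 kBq, and 7.49, 7.62 and 7.55 after 42 kBq. The groups of 14 and 42 kBq overlapped the controls there.

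Over the 15 combinations Arrdc4 was higher in 15, by 0.03 to 0.69. It was higher with no overlap in 10, where 12% of all values were so. It passed at an adjusted p under 0.05 (limma) in 2, liver at 1.8 and 42 kBq, against 8 at an unadjusted p under 0.05. The shares of all probes that passed, and of those with no overlap, are those given for Txnip. The count rested on the arrays in the fit and on scaling: 8 combinations passed without the arrays of 0.064 and 0.64 kBq, 0 with median scaling, and 0 without array 1 or array 2 of every group. Between injected groups, Arrdc4 in kidney medulla was higher at 14 than at 1.8 kBq by 0.46 ± 0.13 (adjusted p = 0.0167, limma), on 3 of 3 arrays, in a comparison that 11.8% of all probes passed in that direction. That call was lost when any 1 of 4 of the 6 arrays was left out, arrays 1 and 3 of 1.8 kBq and arrays 1 and 2 of 14 kBq, with values between 0.40 and 0.43 and adjusted p between 0.0547 and 0.0746. The other 14 comparisons between injected groups did not pass. In the test among the 5 tissues the adjusted p for Arrdc4 was 0.191, 0.677 and 0.557 at 1.8, 14 and 42 kBq. Between 0.64 and 0.064 kBq Arrdc4 differed by between -0.34 in liver and 0.11 in kidney cortex, and 0 of 5 passed (limma), against 1 at an unadjusted p under 0.05.

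**Figure D3:**
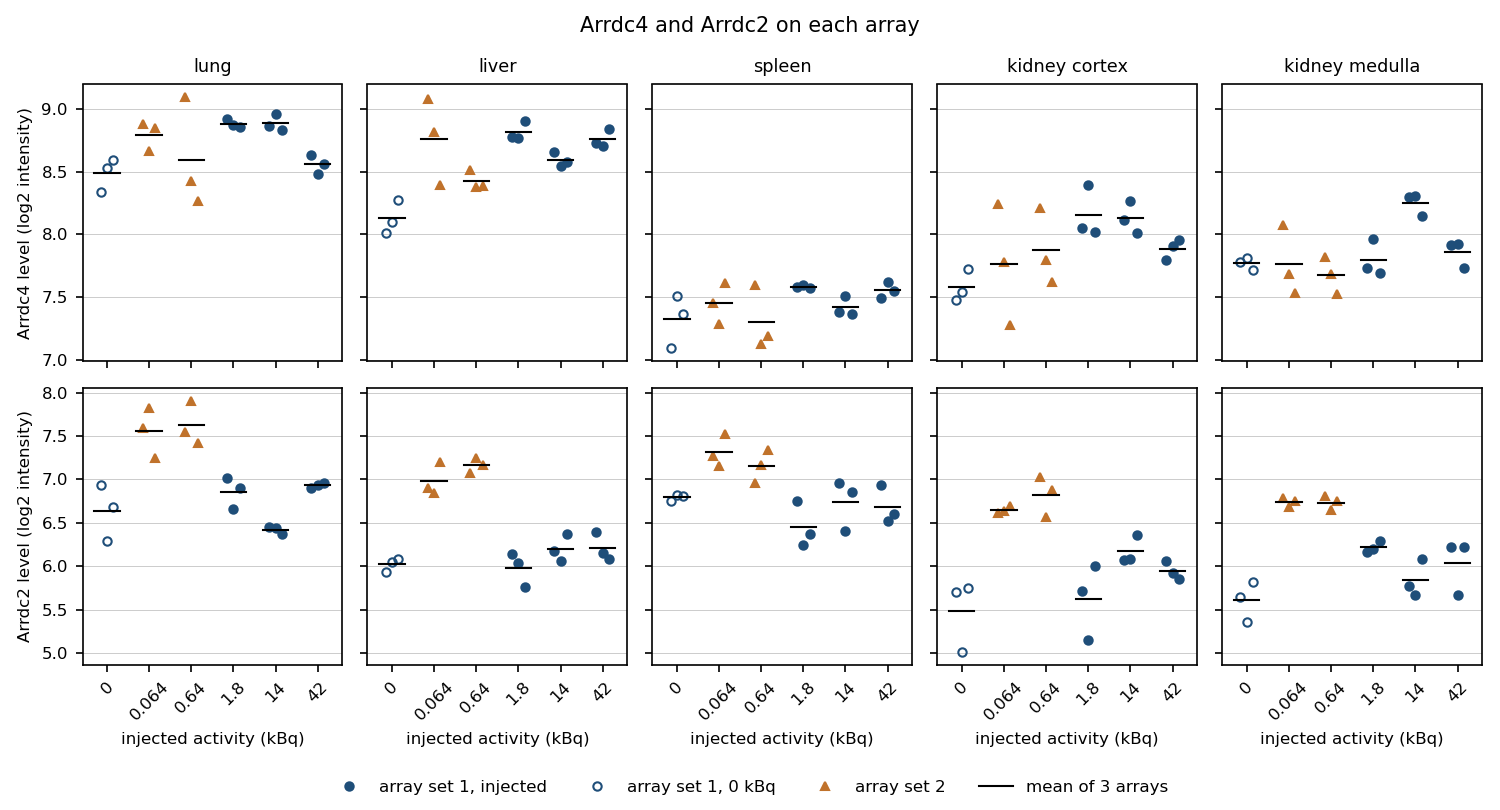
Arrdc4 (upper row) and Arrdc2 (lower row) level (log2 intensity, normalised within each tissue) on each array by injected activity in kBq. Points are arrays, lines the mean of 3 arrays, and triangles the second array set. In liver the Arrdc4 circles of 1.8, 14 and 42 kBq, at 8.54 to 8.90, lie above those of 0 kBq, at 8.01 to 8.28, while the Arrdc2 circles mostly overlap.

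Arrdc2 was clear of the controls in fewer combinations. In kidney medulla it stood at 5.65, 5.36 and 5.82 at 0 kBq, 6.16, 6.20 and 6.30 at 1.8 kBq, 5.77, 5.67 and 6.08 at 14 kBq, and 6.22, 5.68 and 6.22 after 42 kBq. Only 1.8 kBq lay clear of the controls. The log2 difference there was 0.61 ± 0.17 (SE, n = 3 per group), or 1.53-fold. It was 0.20 with the authors' processed values, 0.23 with no background correction and 0.39 with an offset of 50, so its size depended on how background was handled. In kidney cortex it stood at 5.71, 5.01 and 5.75 at 0 kBq, 5.72, 5.15 and 6.01 at 1.8 kBq, 6.07, 6.09 and 6.36 at 14 kBq, and 6.06, 5.92 and 5.86 after 42 kBq. The groups of 14 and 42 kBq lay above the controls there, by 0.68 and 0.46 (SE 0.22 each). These were 0.23 and 0.14 with the authors' processed values and 0.24 and 0.15 with no background correction. The lowest control, at 5.01, was not detected.

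In the other 3 tissues the log2 differences of Arrdc2 from 0 kBq lay between -0.34, in spleen at 1.8 kBq, and 0.30, in lung at 42 kBq. Over all 15 combinations Arrdc2 was higher with no overlap in 4, where 12% of all values were so, lower with no overlap in 1, spleen at 1.8 kBq, where 14.6% of all probes were so, and passed at an adjusted p under 0.05 (limma) in 1, kidney medulla at 1.8 kBq, against 3 at an unadjusted p under 0.05. In that comparison 13.4% of all probes were higher by the same rule. The call was lost without control array 2 and without array 1 or array 2 of every group. Between injected groups 0 of 15 comparisons passed (limma), against 4 at an unadjusted p under 0.05. The response among the 5 tissues had adjusted p of 0.0603, 0.162 and 0.617 at 1.8, 14 and 42 kBq. Between 0.64 and 0.064 kBq the differences ran from -0.16 to 0.18, and 0 of 5 passed, with 0 also at an unadjusted p under 0.05.

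The levels at 0 kBq differed between tissues for each gene when all 90 arrays were normalised together. The p-values of these pairs also treat tissues as independent, with no term for shared animals. Txnip was highest in lung at 12.26 ± 0.13 (SD, n = 3), followed by spleen at 11.11 ± 0.07, kidney medulla at 10.47 ± 0.06, kidney cortex at 10.45 ± 0.21 and liver at 9.46 ± 0.03. Lung exceeded liver by 2.79 ± 0.14 on the log2 scale, or 6.94-fold (adjusted p = 2.52e-29, limma). The arrays stood at 12.14, 12.39 and 12.23 in lung and at 9.43, 9.46 and 9.49 in liver, with no overlap. Of the 10 pairs of tissues 9 passed (limma), all but kidney cortex against kidney medulla, at -0.02 ± 0.14 (adjusted p = 0.968, limma) with an interval from -0.30 to 0.26. With median scaling the 2 pairs of spleen with a kidney zone no longer passed, at 0.22 and 0.33. Of all probes 56.2% passed for lung against liver, 49.8% against spleen, 50.1% against kidney cortex and 49.4% against kidney medulla. The shares were 55.8%, 42.3% and 45.5% for liver against spleen, cortex and medulla, 55% and 54.5% for spleen against cortex and medulla, and 18.9% for cortex against medulla.

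Arrdc4 had another order: liver at 8.64 ± 0.12, lung at 8.14 ± 0.14, kidney medulla at 7.58 ± 0.05, kidney cortex at 7.51 ± 0.12 and spleen at 7.35 ± 0.22 (SD, n = 3 each). Lung less liver was -0.50 on the log2 scale (adjusted p = 0.00388, limma), and -0.09 and not past the threshold with median scaling. The 3 pairs among the kidney zones and spleen did not pass, and the other 7 did. Arrdc2 stood at 6.82 ± 0.03 in spleen, 6.64 ± 0.08 in liver, 6.22 ± 0.31 in lung, 5.50 ± 0.41 in kidney cortex and 5.49 ± 0.21 in kidney medulla. Of its 10 pairs 8 passed, all but liver against spleen and cortex against medulla. Liver less spleen was -0.18 (adjusted p = 0.411, limma), although the 3 arrays of each, 6.55 to 6.70 in liver and 6.78 to 6.85 in spleen, did not overlap. With median scaling that difference was -0.52 and passed (adjusted p = 0.0215, limma). Its difference of lung from liver, -0.42 (adjusted p = 0.0395, limma), was 0.13 with median scaling. With the authors' values that difference was -0.19 and did not pass (adjusted p = 0.0591, limma). It was also lost without array 2 or array 3 of the lung or liver controls. Lung less spleen, which passed at -0.60, did not pass with median scaling, at -0.39 (adjusted p = 0.0944, limma). Without lung control array 2 it was -0.44 and did not pass either (adjusted p = 0.0615, limma).

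**Figure D4:**
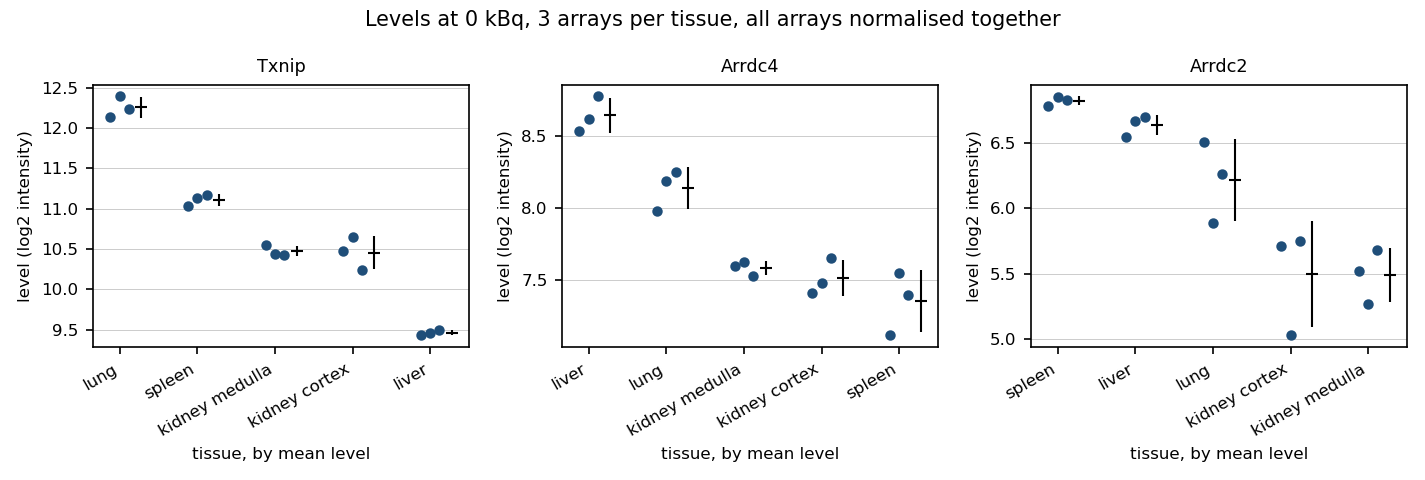
Levels of Txnip, Arrdc4 and Arrdc2 (log2 intensity, all arrays normalised together) at 0 kBq in the 5 tissues, ordered by mean. Points are the 3 arrays, and the bar beside them is the mean ± SD. Txnip runs from 12.26 in lung to 9.46 in liver, while Arrdc4 is highest in liver at 8.64 and Arrdc2 in spleen at 6.82.

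The probes whose pattern was most like that of Txnip were sought over the 60 arrays of 0, 1.8, 14 and 42 kBq, after the mean of each tissue was taken out, among 11850 other probes detected in all 5 tissues. The arrays share their activity groups and controls, so the correlations are a description. The highest was Angptl4, an inhibitor of lipoprotein lipase induced by fasting and glucocorticoids (r = 0.80). It was followed by Sfi1, a centrin-binding spindle protein (r = 0.78), Cirbp, an RNA-binding protein induced by cold (r = 0.77), Acer2, an alkaline ceramidase (r = 0.74), and Ctdsp2, a phosphatase of RNA polymerase II (r = 0.74). Next came the clock gene Per1 and the transcription factor Stat3 (r = 0.74 each), Zc3h6 (r = 0.74), the mitofusin gene Mfn2 and the kinase gene Pim3 (r = 0.72 each). Within single tissues the correlation with Angptl4 ran from 0.57 in lung to 0.91 in kidney cortex. In lung alone the correlations of these probes with Txnip ran from -0.04 for Ctdsp2 and 0.11 for Acer2 to 0.74 for Per1.

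These 10 genes were taken for their likeness over the same arrays, so their counts too are a description. Angptl4 was higher than at 0 kBq in 15 of 15 combinations and passed in 13 (limma), including all 3 in lung, by 0.84, 0.92 and 1.08 on the log2 scale at 1.8, 14 and 42 kBq, where Txnip differed by 0.04, 0.07 and 0.24. In liver at 1.8 kBq Angptl4 differed by 0.17 and Per1 by 0.31, where Txnip differed by 0.79. Per1 passed in 9 of 15, Cirbp in 8, Zc3h6 and Mfn2 in 5 each, Acer2, Ctdsp2 and Pim3 in 4 each, Stat3 in 2 and Sfi1 in 1, and 0 of the 10 passed in the lower direction. Of all values of all tested probes 1.85% were higher by the same rule over these 15 comparisons. In kidney medulla at 1.8 kBq, where 13.4% of all probes were higher, all of the 10 but Pim3 passed. That was the only call of Sfi1. Arrdc4 correlated with Txnip at r = 0.52 and Arrdc2 at r = 0.42 over the same arrays, while Arrdc2 and Arrdc4 had r = -0.07. Of the compared probes 1.25% had a higher correlation with Txnip than Arrdc4 had, and 3.76% than Arrdc2 had. All 3 genes were chosen by their differences from 0 kBq on these arrays, so these shares are a description.

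**Figure D5:**
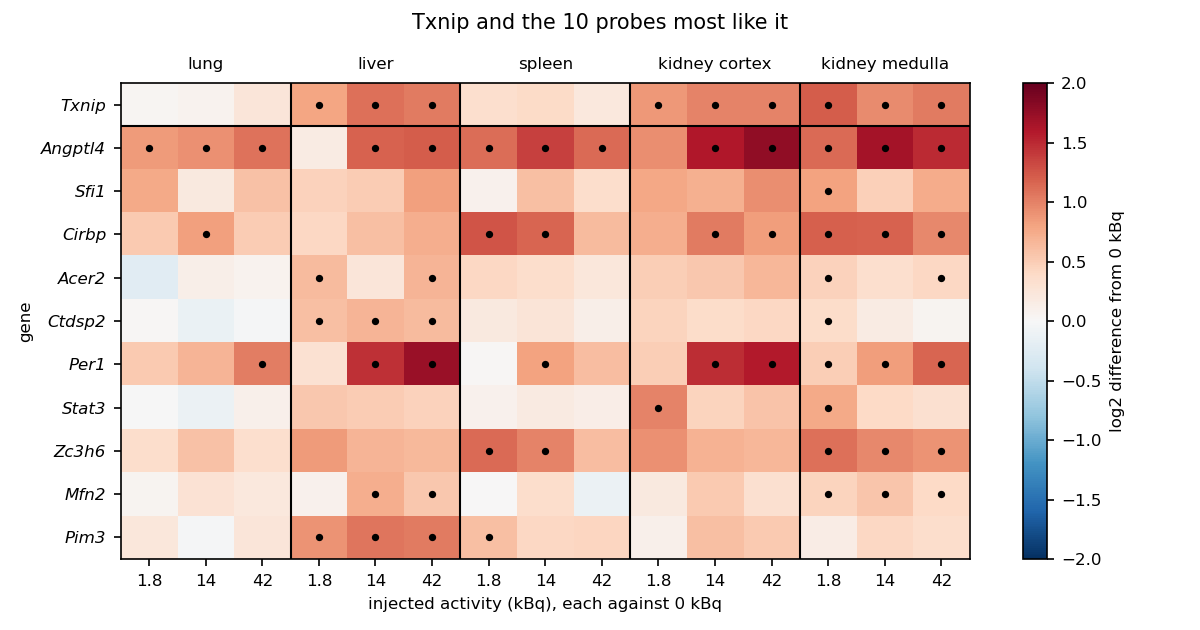
Log2 difference from 0 kBq of Txnip (top row) and of the 10 probes most like it, in 5 tissues at 1.8, 14 and 42 kBq. Red is higher and blue lower than 0 kBq, and a dot marks an adjusted p under 0.05 (limma). Angptl4 reaches 1.78 in kidney cortex at 42 kBq and is also higher in lung, where Txnip is near 0.

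Over the same 15 comparisons with 0 kBq, 1.85% of all values of all tested probes rose and 1.66% fell, and 2046 of the rises and 2029 of the falls were in kidney medulla at 1.8 kBq. Of 10 thioredoxin system genes tested in 15 combinations of tissue and activity, 0 of 150 values rose and 4, or 2.67%, fell (limma, adjusted p under 0.05), against 13 and 8 at an unadjusted p under 0.05. The falls were those of mitochondrial peroxiredoxin Prdx3 in kidney medulla at 1.8 kBq (-0.72, adjusted p = 1.13e-05, limma) and 42 kBq (-0.34, adjusted p = 0.0449) and in spleen at 14 kBq (-0.62, adjusted p = 0.0072), and of Prdx2 in kidney medulla at 1.8 kBq (-0.37, adjusted p = 0.0156). Thioredoxin itself, Txn1, had differences between -0.25 and 0.48 and its reductase Txnrd1 between -0.40 and 0.20, and neither passed in any of 15, with 0 also at an unadjusted p under 0.05. The median of the list was 0.01, and the medians of all probes ran from -0.03 to 0.01 over the same comparisons.

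Of 126 values of the glucose-sensing factors and the other genes they regulate, 5 rose, or 3.97%, and 4 fell, or 3.17%, against 15 and 14 at an unadjusted p under 0.05. Mlxipl, which encodes ChREBP, had differences between -0.39 and 0.75 and passed in 0 of 15 (limma), against 6 at an unadjusted p under 0.05. In liver G6pc, the glucose-releasing phosphatase, rose by 0.37 at 1.8 kBq, 1.45 at 14 kBq and 0.74 at 42 kBq (adjusted p = 0.0477, 2.94e-08 and 0.000174, limma). The hormone Fgf21 rose by 1.08 in liver at 1.8 kBq (adjusted p = 0.00048, limma), where the lipogenic gene Thrsp fell (-1.19, adjusted p = 0.0221). The glycolytic pyruvate kinase gene Pklr fell in spleen at 1.8 kBq (-1.10) and 14 kBq (-1.33), on arrays with the pancreas genes given above.

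Of 135 values of glucose uptake genes 2 rose, or 1.48%, and 3 fell, or 2.22%, against 19 and 11 at an unadjusted p under 0.05. These shares lie near those of all probes. Slc2a1, the glucose transporter that Txnip and Arrdc4 act on, had differences between -0.19 and 0.38 and passed in 0 of 15 (limma), against 4 at an unadjusted p under 0.05. The intestinal-type glucose carrier Slc5a1 rose by 1.02 in kidney cortex at 42 kBq (adjusted p = 0.00309, limma). The renal glucose carrier Slc5a2, also among the proximal tubule genes, fell in kidney medulla at 1.8 kBq (-0.50, adjusted p = 0.0046, limma) and 42 kBq (-0.70, adjusted p = 0.00189). In medulla at 1.8 kBq 13.3% of all probes were lower by the same rule. The part of proximal tubule cells in these falls was not tested.

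Of the other arrestin-fold genes, 0 of 99 values rose and 0 fell (limma), against 0 and 4 at an unadjusted p under 0.05. Among them Arrdc1, a further alpha-arrestin, had differences between -0.20 and 0.37. Of the Nedd4-type ligases and their activators, which alpha-arrestins recruit, 0 of 114 values rose and 5, or 4.39%, fell, against 8 and 11 at an unadjusted p under 0.05. In kidney medulla at 1.8 kBq, Smurf2 (-0.93), Wwp1 (-0.86) and the activator Ndfip1 (-0.36) fell, in a comparison where 13.3% of all probes were lower. Of 2 receptors handled by alpha-arrestins that could be tested, Itgb4, an integrin, rose by 0.96 and Notch1 by 0.74 in the same comparison, where 13.4% were higher, and neither passed elsewhere. Itch was not analysed here.

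The list of 14 hormone- and fasting-responsive genes, of which 12 or 13 were tested per tissue, had the largest share of values that rose. It held genes named in earlier results of these data and is no independent evidence. Of 189 values 42 rose, or 22.2%, against 1.85% of all values, and 1 fell, and the median was 0.23. Angptl4 gave 13 of these rises and Per1 gave 9, and both were also among the genes most like Txnip. Of the 42, 7 were in kidney medulla at 1.8 kBq, where 13.4% of all probes were higher. Besides Angptl4 and Per1, the insulin receptor substrate Irs2 rose in 5 of 15, by up to 1.49 in liver at 1.8 kBq. The glucocorticoid-induced Fkbp5 rose in 4, by up to 1.41 in liver at 1.8 kBq, and Pdk4, a kinase that shuts off pyruvate oxidation in fasting, rose in 3, all in kidney medulla, by 1.26, 1.31 and 1.41 at 1.8, 14 and 42 kBq. Foxo1, a forkhead factor, had differences between -0.74 and 0.85 and fell in 1. The glucocorticoid receptor gene Nr3c1 passed in 0 of 15 (limma), against 2 at an unadjusted p under 0.05.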

How the data were processed

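RNA of 5 tissues was hybridised to 90 single-colour Illumina bead arrays, 3 for each of 30 groups of tissue and activity, grouped by the labels. The deposited table held, per probe and array, an unnormalised intensity and a detection p-value, and per the labels it came from total RNA with biotin label. The authors' own processed intensity values were deposited as a second table, whose normalisation is not given in the sources used here, and their rank correlation with the unnormalised values was at least 0.999 on each of the 90 arrays. Its values are multiples of 1/80 on 60 arrays and of 1/33 on the 30 arrays of 0.064 and 0.64 kBq (median 99.53% and 99.32% of values, tolerance 0.01), and these are treated here as 2 array sets.

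The intensities were corrected with normexp using the detection p-values (offset 16), quantile normalised within each tissue and put on a log2 scale. Probes with a detection p under 0.05 on at least 3 arrays were kept, 15063 in kidney cortex, 15298 in kidney medulla, 13673 in liver, 15310 in spleen and 16048 in lung. limma 3.58.1 in R 4.3.3 fitted 1 mean per group over the 18 arrays of a tissue, with 12 residual degrees of freedom, and Benjamini-Hochberg adjustment over all tested probes. An adjusted p under 0.05 is called passing, and intervals are 95%. Levels at 0 kBq and responses among tissues came from 1 fit of all 90 arrays with 19538 probes. Probe symbols came from the platform annotation, with 23978 probes of 1 symbol, 0 of several and 1719 of none, and 23962 matched RefSeq by gene number. The fits were tested on simulated data.

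The members and gene lists were chosen with earlier results of these data known. Named genes are the members, the 10 probes most correlated with Txnip, fixed partners (Mlxipl, Txn1, Txnrd1, Slc2a1, Arrdc1) and list genes that passed. A gene or comparison that is said to rest on a setting is given with that setting, and the alternatives were the offset, background correction, scaling, filter, array set, the authors' values, a replicate block and leaving out arrays. Intensities carry no counts, so the number of arrays limits the precision.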

Additional observations from a re-analysis of the deposited data

Results flagged for a closer look

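The response of Txnip to injection differed among the 5 tissues in an F test of limma over all 90 arrays, with an adjusted p of 5.65e-05 at 1.8 kBq, 0.0021 at 14 kBq and 0.00133 at 42 kBq. The log2 differences from 0 kBq in that fit were 0.04, 0.08 and 0.27 in lung, 0.67, 0.92 and 0.87 in liver, 0.38, 0.43 and 0.24 in spleen, 0.85, 0.98 and 0.98 in kidney cortex, and 1.24, 0.97 and 1.06 in kidney medulla, at 1.8, 14 and 42 kBq (SE 0.14 each). The gene was chosen from these contrasts, and the 3 activities share their controls. The fit treats tissues as independent, with no term for shared animals. Cell type markers moved in all 5 tissues, both kidney zones among them, and their part was not tested.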

How the results depend on the processing

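Of the counts and the tests among tissues, each under each alternative, 214 results were kept as unchanged, 15 counts moved, 2 tests gained and 3 lost significance. A limited change of a count was kept as unchanged, among them the Txnip count of 6 with median scaling given below. Of the single differences, 2035 results were kept as unchanged, 24 moved, 6 gained and 16 lost significance, and 1 changed sign. The number of combinations in which Txnip was higher than at 0 kBq, 9 of 15, was 5 to 7 when array 1, 2 or 3 of every group was left out, an alternative chosen after seeing the data. It was 11 with arrays of the same set only, 10 with the authors' values and 6, all in kidney, with median scaling, which moved the median of all probes to -0.22 in liver at 1.8 kBq. The Txnip count of 0.64 against 0.064 kBq, 0 of 5, was 1 with median scaling (kidney medulla) and 0 to 1 when arrays were left out (liver). Of the Txnip differences between injected groups, 1 was higher and 1 lower with arrays of the same set only. The Arrdc4 count against 0 kBq, 2, was 8 with arrays of the same set only, 0 with median scaling and 0 to 2 with arrays left out. Its count between injected groups, 1 higher, was 0 to 1 with arrays left out, and 1 was lower with arrays of the same set only. The Arrdc2 count, 1, was 0 to 1 with arrays left out. Among tissues, the Txnip adjusted p of limma was 0.105, 1.00 and 0.884 for liver and kidney alone, which uses fewer tissues, and 9.81e-10, 1.03e-07 and 7.63e-08 with arrays of the same set only. For Arrdc4 it was 0.00403 at 1.8 kBq and 0.0440 at 42 kBq with arrays of the same set only. The difference of Arrdc2 between lung and liver turned to 0.13 with median scaling. Where no cause is named, the cause was not tested.

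With the replicate number as a block, Txnip passed in 10, Arrdc4 in 2 and Arrdc2 in 1 of the 15 combinations against 0 kBq, and in 0, 1 and 0 of those between injected groups. In the same block fit 9, 7 and 8 of 10 tissue pairs passed for Txnip, Arrdc4 and Arrdc2. Same-numbered arrays correlated between -0.19 and 0.41 in 20 pairs of groups, with all 3 over 0.1 in 5 of them, so the numbers were not taken to pair the arrays, which the labels do not state either. In 11 of the 20 every array correlated best with its own number, and in 18 the same-numbered mean was the higher, a hint from the data and not from the design. No other probe of a gene could be tried, as each had 1, and the files name no slide.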

Other observations

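The likeness of other probes to Arrdc4 and Arrdc2 was taken over the 60 arrays of 0, 1.8, 14 and 42 kBq, by correlation after the tissue means were taken out. Txnip itself stood high for both, as 0.304% of the compared probes correlated better with Arrdc4 and 0.692% with Arrdc2. The probes most like Arrdc4 were Rbm3, an RNA-binding protein induced by cold (r = 0.68), the DNA repair gene Xpa (r = 0.66) and the transcription factor gene Hbp1 (r = 0.64). Within spleen alone the correlation with Arrdc4 was 0.67 for Rbm3, 0.12 for Xpa and -0.33 for Hbp1. Those most like Arrdc2 were Prf1, which encodes perforin (r = 0.56), the replication factor gene Mcm10 (r = 0.56) and Ifngr2, an interferon gamma receptor chain (r = 0.55). The arrays share groups and controls, so these are descriptions.

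Between 0.64 and 0.064 kBq, Angptl4 rose in liver (0.58, adjusted p = 0.0273, limma), kidney cortex (1.48, adjusted p = 0.0138) and kidney medulla (1.11, adjusted p = 0.000118). In the same comparison Per1 rose in lung (1.07, adjusted p = 0.0491), liver (2.06, adjusted p = 0.000507) and kidney medulla (0.91, adjusted p = 0.00419). The Txnip differences there were 0.16 in liver, 0.11 in kidney cortex and 0.27 in kidney medulla. Whether these genes differ from Txnip in that comparison was not tested.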
